A study of Homo sapiens with 24 samples.

Results

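The data described here are the 8 RNA-sequencing libraries of PSN1 among the 24 libraries of the series, selected by their sample titles. PSN1 is an established human pancreatic adenocarcinoma line. The genotype label is WT, and the series describes its 3 lines, PSN1, BXPC3 and MIAPACA2, as MTAP-deleted; both PSN1 groups share this background, and a counterpart that expresses MTAP is not analysed here. Of the PSN1 libraries, 4 came from cells given AM9747 at 100 nM and 4 from cells given DMSO as vehicle, all harvested at day 6. PSN1 was cultured in medium with fetal bovine serum, and the labels do not say whether the 4 libraries of a group came from separate cultures, so the p-values speak only of the spread between libraries, which may be technical. The question was which transcripts differed between PSN1 with the inhibitor and PSN1 with vehicle, when the uneven share of mitochondrial counts is taken into account.

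PRMT5 is the main enzyme that places symmetric dimethyl marks on arginine, and it works in a complex with WDR77. Its substrates include Sm proteins of the spliceosome, other RNA-binding proteins and histones, and loss of its activity is known for changing splicing, with MDM4 as a well studied example. MTAP degrades methylthioadenosine, so cells without MTAP hold more of this metabolite, which occupies PRMT5. AM9747 belongs to the inhibitors that act together with methylthioadenosine.

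Libraries held 22412691 to 38410699 counts, and the share from the mitochondrial genome (genes named MT-) was uneven. In the vehicle libraries, replicates 1 to 4 in that order, this share was 17.4, 43.8, 37.6 and 33.5% of all counts. In the AM9747 libraries it was 7.98, 14.1, 26.8 and 31.1%. The group means were 33.1% ± 11.3 (SD, n = 4) with vehicle and 19.99% ± 10.8 (SD, n = 4) with AM9747, the groups overlapped, and the difference was within the spread between libraries (p = 0.143, two-sided exact permutation test over 70 splits, smallest possible p 0.0286). Totals and scaling factors were therefore computed over genes outside the mitochondrial genome, which gave 13992037 to 31725550 counts with vehicle and 20147574 to 33842874 with AM9747, and the share was tried as a covariate. Genes with at least 1 count numbered 16646 to 24738 with vehicle and 22386 to 27120 with AM9747 (p = 0.0857, exact permutation test), and the exact p was 0.0286 when vehicle replicate 1 was left out. The 50 most abundant genes outside the mitochondrial genome took 18.6% ± 1.83 of those counts with vehicle and 14.2% ± 1.07 with AM9747 (SD, n = 4 each), with no overlap (p = 0.0286, exact permutation test). Vehicle replicate 3 stood apart, with the lowest depth, the fewest genes and the lowest mean correlation with its own group (0.818, against 0.871 to 0.890 for the other vehicle libraries and 0.935 to 0.948 within AM9747). Vehicle replicate 1 stood apart in another way. Its mean correlation was higher with the AM9747 libraries (0.918) than with its own group (0.871), which held for no other library.

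**Figure D1:**
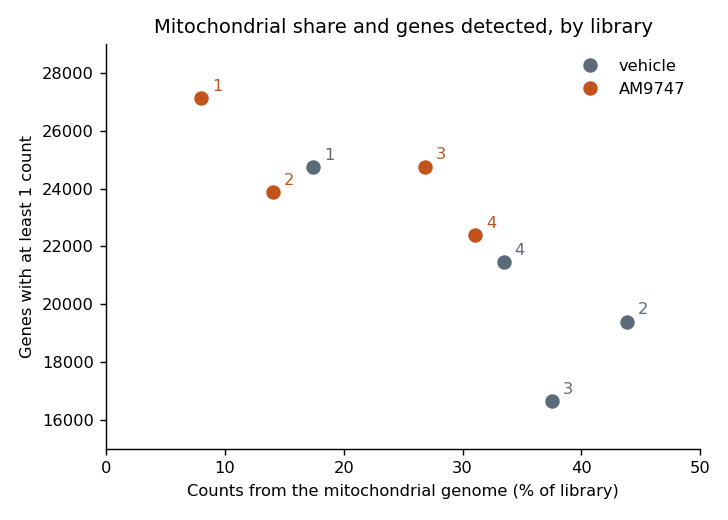
Share of counts from the mitochondrial genome (x axis, % of all counts in a library) against the number of genes with at least 1 count (y axis). Each point is 1 library, numbered by replicate, and the 4 vehicle libraries span 17.4 to 43.8% while the 4 AM9747 libraries span 7.98 to 31.1%.

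The fit of these 8 libraries tested 18309 genes (edgeR quasi-likelihood test, Benjamini-Hochberg adjusted p below 0.05). It called 769 genes higher with AM9747, or 4.2% of those tested, and 1147 lower, or 6.26%, together 10.5%. Of these, 632 rose and 1004 fell at least 2-fold. Levels of the 2 groups did not overlap for 21.3% of the genes tested, 10.9% with higher and 10.4% with lower levels under AM9747. With the mitochondrial share as a covariate 621 genes rose (3.39%) and 775 fell (4.23%), 1059 of the 1916 calls were kept and all 1916 had the same sign. Which direction held more calls depended on scaling: with totals over all counts and no scaling factor the split was 1212 higher and 542 lower, and the median of all genes moved by 0.34 on the log2 scale, whereas with totals outside the mitochondrial genome and no scaling factor it was 1174 and 950. Counts of calls also rested on single libraries. They were 2448 higher and 1902 lower without vehicle replicate 1, 309 and 559 without vehicle replicate 2, and 231 and 417 without vehicle replicate 4. Leaving out AM9747 replicate 1, 2, 3 or 4 gave 376, 190, 379 and 257 higher and 612, 354, 707 and 483 lower, and 500 genes kept their call whichever library was left out. Median log2 fold change was 0.29 in the lowest and -0.27 in the highest of 4 equal groups of genes by GC content, and with trends in GC content and length removed 881 genes rose (4.81%) and 1320 fell (7.21%), with 1653 of the calls kept. The part of GC content, depth and mitochondrial share in the calls was not tested beyond these fits. Below, levels are per-million counts (CPM) on the scaled totals, which leave out the mitochondrial genome. They are listed for replicates 1 to 4 or given as the mean ± SD of the 4 libraries of a group. Fold changes are AM9747 against vehicle, and a number in parentheses after a gene is its log2 fold change.

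Genes of cell division held the most rises of the lists examined. Of 65 tested genes of mitosis and the kinetochore, 44 rose and 0 fell, or 67.7% against 4.2% of all genes tested, and the median log2 fold change of the 65 was 1.81, beside 0.02 over all genes. INCENP, the scaffold of the chromosomal passenger complex that carries Aurora B to centromeres (chr11:62123973-62153163, plus strand, hg38), had the smallest adjusted p of the named genes. INCENP was at 17.7, 21.4, 18.7 and 19.2 CPM in the vehicle libraries and at 211, 220.2, 308 and 224 CPM in the AM9747 libraries. The groups lay far apart, and AM9747 replicate 3 was the highest library. The fold change was 3.65 ± 0.22 on the log2 scale (SE, n = 4 against 4, adjusted p = 8.58e-05). Of the other members of that complex, BIRC5 (survivin) rose by 2.30 and CDCA8 (borealin) by 1.67 on the log2 scale, while the kinase AURKB itself, at 1.08, did not pass (adjusted p = 0.0642, and 0.0248 with the covariate). CDCA8 lost its call with the covariate (adjusted p = 0.0841) and without vehicle replicate 2 or AM9747 replicate 1 or 2 (adjusted p up to 0.0667). With the mitochondrial share as a covariate 37 of the 65 passed. Without vehicle replicate 4 the count was 28 and without AM9747 replicate 2 it was 29.

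Vehicle libraries held 16.5, 5.65, 2.66 and 13 CPM of ASPM, and AM9747 libraries held 82.2, 63.7, 61.5 and 61.7 CPM. ASPM organises spindle poles, and every AM9747 library was above every vehicle library. The log2 fold change came to 2.82 ± 0.48 (SE, adjusted p = 0.0066). For CENPA the vehicle libraries gave 5.23, 1.7, 0 and 0.634 CPM and the AM9747 libraries 16.5, 19.5, 15.5 and 24.6 CPM. CENPA is the histone H3 variant that marks centromeres, and vehicle replicate 3 had 0 counts of it. That is a log2 fold change of 3.3 ± 0.91 (SE, adjusted p = 0.0424). SGO2, a protector of centromeric cohesion, was at 0 to 5.75 CPM with vehicle and 15.6 to 36.3 with AM9747. The log2 fold change of SGO2 was 3.23. The calls of CENPA and SGO2 were lost with the covariate (adjusted p = 0.0555 and 0.0646) and without vehicle replicate 2, vehicle replicate 4 or any 1 AM9747 library (adjusted p up to 0.114 and 0.0997). Further members rose with every library left out in turn and with the covariate. They include the kinases PLK1 (1.67), AURKA (2.23), BUB1 (2.3), TTK (2.43) and CDK1 (1.87), the proliferation marker MKI67 (2.63) and the cytokinesis gene ANLN (2.6), as log2 fold changes. The mitotic cyclins CCNB1 (1.99) and CCNB2 (1.79) rose as well, but their calls were lost without vehicle replicate 2, vehicle replicate 4 or AM9747 replicate 2 (adjusted p up to 0.0621 and 0.0787), and that of CCNB2 with the covariate (adjusted p = 0.0576) and without AM9747 replicate 1 or 4. These 9 were chosen by role after their values were seen. SPC24 (-0.072) and CDC25B (-0.062), a kinetochore subunit and a CDK phosphatase, were the members with a value below 0, and neither passed.

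Replication and G1/S genes rose too. Of 53 tested, 18 rose and 0 fell (34.0%, against 4.2% of all genes), with a median log2 fold change of 0.96. The level of FEN1 was 19.5, 9.17, 11.8 and 18.1 CPM with vehicle and 72.1, 56.6, 43.8 and 46.6 CPM with AM9747. FEN1 is the flap endonuclease of lagging-strand synthesis, and its groups did not overlap. On the log2 scale the fold change was 1.9 ± 0.3 (SE, adjusted p = 0.0047). GINS1 was at 7.94, 12.3, 11.2 and 13.1 CPM in the vehicle libraries and at 35, 31.2, 33.2 and 39.9 CPM in the AM9747 libraries. GINS1 is a subunit of the replicative helicase, and its groups did not overlap either. This gave a log2 fold change of 1.65 ± 0.25 (SE, adjusted p = 0.00408). MCM2, another helicase subunit, was at 9.11 to 21.4 CPM with vehicle and 39 to 71.5 with AM9747 (log2 fold change 1.68, adjusted p = 0.00904). RRM1, the large subunit of ribonucleotide reductase, was at 6.58 to 24.5 CPM with vehicle and 28.9 to 114 with AM9747 (log2 fold change 2.25), and its call was lost without vehicle replicate 2, vehicle replicate 4, AM9747 replicate 1 or AM9747 replicate 2 (adjusted p up to 0.0829). The count of 18 depended on which library was left out: it was 25 without vehicle replicate 1, 17 without vehicle replicate 3, 5 without vehicle replicate 2 and 5 without vehicle replicate 4, and 6, 4, 8 and 6 without AM9747 replicates 1 to 4. In bulk RNA, more cells in a stage of the cycle and more RNA per cell cannot be told apart.

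Among cyclins and CDK inhibitors 3 of 17 rose and 1 fell (17.6% higher and 5.88% lower, against 4.2% and 6.26% of all genes), so the share that fell was near that of all genes. CCNA2, the S and G2 phase cyclin, was at 1.99 to 5.71 CPM with vehicle and 13.7 to 21.5 with AM9747 (log2 fold change 2.02, adjusted p = 0.0108). CCND3 (1.19) and CCND1 (0.99), cyclins of G1, rose on the same scale, and CDKN2B, the inhibitor p15 of CDK4 and CDK6, fell, from 216 ± 49 to 105 ± 6.59 CPM. The fitted log2 fold change was -1.03 ± 0.22 (SE, adjusted p = 0.0165). The calls of CCND1 and CCND3 were lost with the covariate (adjusted p = 0.126 and 0.111), and those of CCND1, CCND3 and CDKN2B were lost without vehicle replicate 2, vehicle replicate 4, AM9747 replicate 2 or AM9747 replicate 4, among others (adjusted p up to 0.103). Of 18 tested replication-dependent histone genes 2 rose (11.1%), H1-2 (2.11, adjusted p = 0.00131) and H2BC5 (0.9, adjusted p = 0.0365, lost without vehicle replicate 2 or 4 or AM9747 replicate 2, 3 or 4 with p up to 0.12); poly(A) libraries capture few of these transcripts, most of which carry no poly(A) tail. Of 48 homologous recombination and Fanconi anaemia genes 5 rose and 1 fell (10.4% higher and 2.08% lower). UBE2T, the E2 enzyme of FANCD2 ubiquitination, was at 11.1 to 28.2 CPM with vehicle and 46.3 to 66.1 with AM9747 (log2 fold change 1.55, adjusted p = 0.0112), and FANCL, the E3 that works with it, was at 17.4 to 48.9 CPM with vehicle and 7.001 to 11.7 with AM9747 (-1.63). The FANCL call was lost with the covariate (adjusted p = 0.0748) and without AM9747 replicate 1, 2 or 3 (adjusted p up to 0.0849).

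**Figure D2:**
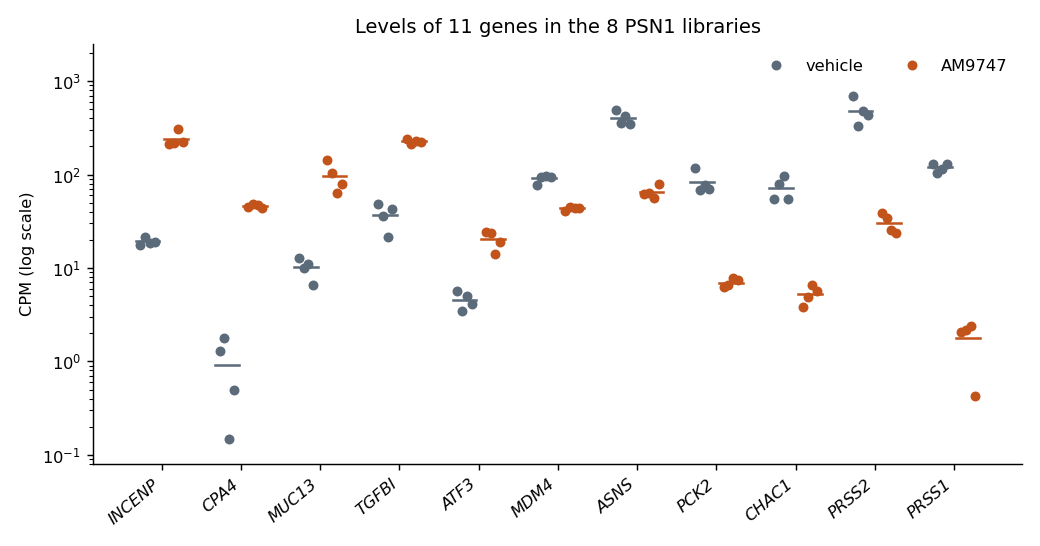
Level of 11 genes (CPM, log scale) in each PSN1 library; points are libraries, left to right replicates 1 to 4, and short lines are group means (n = 4). INCENP lies at 17.7 to 21.4 CPM in all vehicle libraries and 211 CPM or more in all AM9747 libraries, while PRSS1 lies at 105 CPM or more with vehicle and at 2.41 CPM or less with AM9747.

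Many late cell-cycle promoters carry a cell cycle genes homology region, which DREAM and MuvB complexes bind, and the 250 bases before the RefSeq start (GRCh38.p14) were searched for its core TTTGAA or TTCAAA on the other strand. A promoter was at hand for 55 of the 65 mitosis genes, and 27 of these held the motif, or 49.1%, beside 8.64% of the 11597 promoters of genes tested. Of the 38 that rose and had a promoter, 20 held it. A match is a description of these letters and not a bound site, and the motif was chosen after the values of the list were known. The windows below, 60 bases each on the strand of the gene with the motif in capitals, belong to 5 mitosis genes that rose and were chosen for a motif near the start, from 10 bases before it in INCENP to 29 in PLK1. Among the 20 it also lay further out, with the nearest match 65 bases before the start in CDC20, 113 in ASPM, 145 in NCAPD2, 151 in TOP2A and 161 in CDK1.
INCENP (chr11:62123951-62124010, plus strand): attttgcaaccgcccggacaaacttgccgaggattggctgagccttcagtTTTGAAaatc
CENPA (chr2:26785996-26786055, plus strand): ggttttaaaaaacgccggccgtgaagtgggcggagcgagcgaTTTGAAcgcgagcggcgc
CDCA8 (chr1:37692456-37692515, plus strand): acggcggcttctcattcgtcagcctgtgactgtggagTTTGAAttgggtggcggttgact
CCNB2 (chr15:59105086-59105145, plus strand): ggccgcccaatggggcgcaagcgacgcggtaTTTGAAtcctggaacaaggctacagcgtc
PLK1 (chr16:23678829-23678888, plus strand): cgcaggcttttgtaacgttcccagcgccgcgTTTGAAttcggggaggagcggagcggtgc

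The integrated stress response and serine synthesis genes held the most falls of the lists examined. ATF4 translation switches this program on, and it supplies amino acids, their transporters and serine for one-carbon metabolism. Of 31 tested, 18 fell and 1 rose (58.1% lower, against 6.26% of all genes), and the median log2 fold change was -1.03. Vehicle libraries held 54.9, 78.7, 95.5 and 55.4 CPM of CHAC1, and AM9747 libraries held 3.79, 4.92, 6.54 and 5.68 CPM. CHAC1 degrades glutathione and is a sensitive ATF4 target, and its groups lay far apart. The fold change was -3.76 ± 0.3 on the log2 scale (SE, n = 4 against 4, adjusted p = 0.000205). For PCK2 the vehicle libraries gave 118, 69.2, 76.5 and 70.5 CPM and the AM9747 libraries 6.21, 6.55, 7.82 and 7.39 CPM. PCK2 is the mitochondrial phosphoenolpyruvate carboxykinase, and vehicle replicate 1 was the highest library. The log2 fold change came to -3.58 ± 0.26 (SE, adjusted p = 0.000194). The level of ASNS was 489.6, 355, 422 and 347 CPM with vehicle and 61.7, 63.7, 56.5 and 79.97 CPM with AM9747. ASNS makes asparagine, and every AM9747 library was below every vehicle library. That is a log2 fold change of -2.62 ± 0.22 (SE, adjusted p = 0.000248). ALDH1L2, the mitochondrial enzyme that oxidises formyl tetrahydrofolate, fell from 85.8 ± 38.7 to 11.7 ± 4.8 CPM. With the covariate 19 of the 31 fell. Without AM9747 replicate 2 the count was 10.

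Within this program the enzymes of serine synthesis PHGDH (-1.93) and PSAT1 (-2.31) fell while PSPH (-0.74) did not pass, and the amino acid transporters SLC7A11 (-1.01), SLC7A5 (-0.95), SLC3A2 (-0.88) and SLC1A5 (-1.03) fell. The transcription factors ATF4 (-1.26), DDIT3 (-1.51) and CEBPG (-0.92) fell, as did the stress genes TRIB3 (-2.29), NUPR1 (-2.51) and DDIT4 (-1.64), all as log2 fold changes. These members were named by role after their values were seen. The enzymes and the 3 stress genes passed with every library left out. ATF4 and DDIT3 lost their calls without AM9747 replicate 2 (adjusted p = 0.0552 and 0.0595), DDIT3 also with the covariate (adjusted p = 0.0702), and CEBPG and the 4 transporters lost theirs without vehicle replicate 2 or AM9747 replicate 2 or 4, among others (adjusted p up to 0.125 for CEBPG and 0.112 for the transporters). ATF3 was at 5.65, 3.46, 5.03 and 4.17 CPM in the vehicle libraries and at 24.3, 23.7, 14.3 and 19.1 CPM in the AM9747 libraries. ATF3, a stress-induced transcription factor, was the exception that rose, and its groups did not overlap. On the log2 scale the fold change was 2.15 ± 0.32 (SE, adjusted p = 0.00383). GDF15, a secreted target of the same program, was at 0.20 and did not pass. ADM2 (intermedin), a secreted peptide outside the list, fell from 60.8 ± 8.5 to 4.39 ± 2.3 CPM. This gave a log2 fold change of -3.79 ± 0.38 (SE, adjusted p = 0.000592).

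ATF4 binds a C/EBP-ATF response element, and the same promoters were searched for TGATGNAA or its reverse complement TTNCATCA. Of 25 list members with a promoter 4 held it, or 16%, beside 1.54% of the 11597 promoters of genes tested. They were ASNS, CHAC1, ATF3 and FGF21, and FGF21 (log2 fold change -2.88) did not pass. The 3 windows of the genes that passed are shown because the element stands in front of 2 genes that fell and 1 that rose.
ASNS (chr7:97872443-97872502, minus strand): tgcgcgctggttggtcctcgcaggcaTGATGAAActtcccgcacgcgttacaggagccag
CHAC1 (chr15:40953236-40953295, plus strand): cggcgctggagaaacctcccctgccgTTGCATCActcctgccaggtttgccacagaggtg
ATF3 (chr1:212565190-212565249, plus strand): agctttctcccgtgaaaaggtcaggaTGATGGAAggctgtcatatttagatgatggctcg

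**Figure D3:**
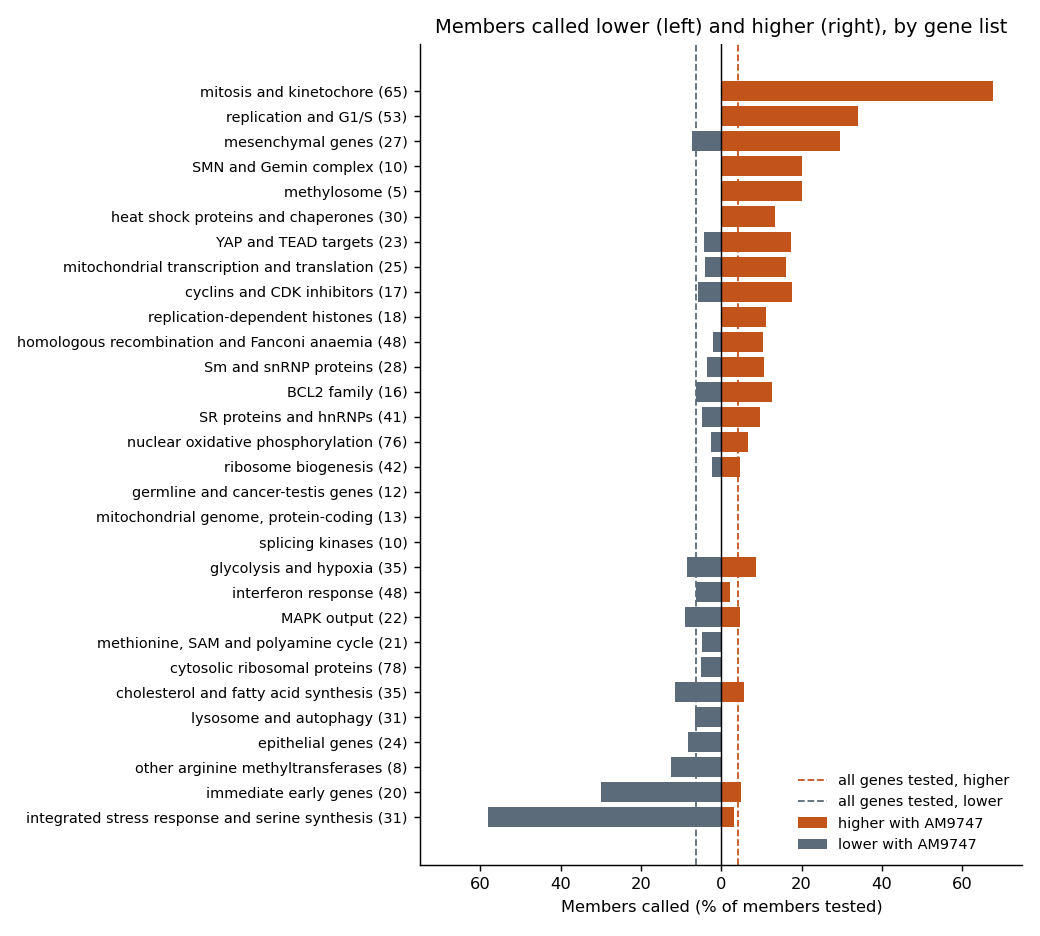
Share of tested members called lower (left) and higher (right) in each of 30 gene lists, with the number tested in parentheses; dashed lines are the shares over all genes tested, 6.26% lower and 4.2% higher. Mitosis genes reach 67.7% higher, and integrated stress response genes 58.1% lower.

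The trypsinogen genes PRSS1 and PRSS2 were among the 12 protein-coding genes with the largest falls. Vehicle libraries held 130.1, 105, 114 and 129 CPM of PRSS1, and AM9747 libraries held 2.09, 2.16, 2.41 and 0.426 CPM. PRSS1 encodes cationic trypsinogen, a zymogen of acinar cells (chr7:142749468-142753076, plus strand, hg38), and AM9747 replicate 4 was the lowest library. The fitted log2 fold change was -6.06 ± 0.47 (SE, adjusted p = 0.000203). For PRSS2 the vehicle libraries gave 700.0, 328, 478 and 433 CPM and the AM9747 libraries 38.6, 34.4, 25.8 and 23.5 CPM. PRSS2 encodes anionic trypsinogen, and its groups did not overlap. The fold change was -3.99 ± 0.31 on the log2 scale (SE, n = 4 against 4, adjusted p = 0.000203). The trypsinogen genes are near-identical copies, so reads may have been divided between them by the counting. The summed level of 11 acinar markers ran from 115 to 140 CPM with vehicle, led by PRSS1, and from 5.64 to 21.8 with AM9747, led by CEL. CEL, a lipase activated by bile salt, was at 1.55 to 13.8 CPM with vehicle and 2.24 to 13.2 with AM9747, and it did not pass (log2 fold change 0.19, adjusted p = 0.895). CTRB2, a chymotrypsinogen too low to be tested, had 0 counts with vehicle and 0.239 to 6.3 CPM with AM9747, and CELA3A, CELA3B and PNLIP had 0 counts in all 8 libraries.

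DMBT1, a scavenger receptor of mucosal secretions, fell from 200.4 ± 86.5 to 13.1 ± 5.05 CPM (log2 fold change -3.93). ITIH4, an inter-alpha-trypsin inhibitor heavy chain, fell from 35.6 ± 16.3 to 1.25 ± 0.779 CPM (-4.82), and the calpain CAPN8 fell from 51.9 ± 22.1 to 3.25 ± 0.981 CPM (-3.99). PGGHG, a glucosidase that acts on hydroxylysine-linked sugars of collagen, fell from 199 ± 84.4 to 11.1 ± 4.35 CPM (-4.17). NADPH oxidase genes were among the largest falls too. NOX3, a catalytic subunit, was at 12.8 to 22.8 CPM with vehicle and 0.474 to 1.46 with AM9747 (-4.06), and NOXA1, an activator, was at 3.03 to 20.3 CPM with vehicle and 0 to 2.01 with AM9747 (-3.78). The NOXA1 call was lost with the covariate (adjusted p = 0.201) and without vehicle replicate 2, 3 or 4 or AM9747 replicate 1, 2 or 4 (adjusted p up to 0.109). ANKHD1-EIF4EBP3, a readthrough transcript that shares exons with its neighbours and cannot be counted apart from them with certainty, was at 63.5 to 257 CPM with vehicle and 0.378 to 25.5 with AM9747 (-3.67), and its call was lost without vehicle replicate 2, 3 or 4 or AM9747 replicate 1, 3 or 4 (adjusted p up to 0.0829).

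Several of the largest rises started from vehicle levels near 0, where fold changes depend on few counts. The level of CPA4 was 1.29, 1.76, 0.148 and 0.498 CPM with vehicle and 44.5, 48.2, 46.7 and 44.3 CPM with AM9747. CPA4 is a secreted carboxypeptidase, and its AM9747 libraries lay within a narrow range. The log2 fold change came to 5.6 ± 0.56 (SE, adjusted p = 0.000602). FSTL1 was at 0.523, 0.364, 0 and 0 CPM in the vehicle libraries and at 34.4, 27.6, 16.3 and 16.9 CPM in the AM9747 libraries. FSTL1 is a secreted glycoprotein that modifies BMP signalling, and its vehicle replicates 3 and 4 had 0 counts. That is a log2 fold change of 6.61 ± 0.87 (SE, adjusted p = 0.00232). RGS4, a brake on G-protein signalling, was at 0 to 0.523 CPM with vehicle and 7.78 to 28.9 with AM9747 (log2 fold change 5.86). C11orf86 was at 0 to 1.43 CPM with vehicle and 11.8 to 15.2 with AM9747 (3.82). Vehicle libraries held 12.7, 10.02, 11.2 and 6.61 CPM of MUC13, and AM9747 libraries held 142, 103, 63.4 and 79.8 CPM. MUC13 is a transmembrane mucin of the gut, and every AM9747 library was above every vehicle library. On the log2 scale the fold change was 3.26 ± 0.32 (SE, adjusted p = 0.000563).

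CD274 (PD-L1), a ligand that restrains T cells, was at 0 to 2.06 CPM with vehicle and 8.89 to 13.8 with AM9747 (log2 fold change 3.53, adjusted p = 0.0226), and its call was lost without vehicle replicate 4 or AM9747 replicate 2, 3 or 4 (adjusted p up to 0.0804). DKK1, a secreted Wnt antagonist, was at 0 to 17.1 CPM with vehicle and 53.6 to 106 with AM9747 (3.36), AOX1, an aldehyde oxidase, was at 0 to 7.71 CPM with vehicle and 40.6 to 79.4 with AM9747 (3.3), and HSD11B1, which regenerates cortisol, was at 0 to 4.6 CPM with vehicle and 10.2 to 27.6 with AM9747 (3.24). For each of these 3 the groups did not overlap. Their calls were lost with the covariate (adjusted p = 0.0556, 0.076 and 0.0796) and without vehicle replicate 2, vehicle replicate 4 or any 1 AM9747 library (adjusted p up to 0.105, 0.0838 and 0.131).

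Of 27 tested mesenchymal and matrix genes 8 rose and 2 fell (29.6% higher and 7.41% lower, against 4.2% and 6.26% of all genes), with a median log2 fold change of 0.99. For TGFBI the vehicle libraries gave 48.7, 35.8, 21.4 and 43 CPM and the AM9747 libraries 241, 213, 226 and 226 CPM. TGFBI is a matrix protein induced by TGF-beta, and its AM9747 libraries were alike and far above vehicle. This gave a log2 fold change of 2.6 ± 0.27 (SE, adjusted p = 0.000678). SPARC, a collagen-binding matrix protein, was at 1.77 to 14.5 CPM with vehicle and 46.9 to 126 with AM9747 (log2 fold change 3.31, adjusted p = 0.00747), and COL3A1, a fibrillar collagen, was at 13.9 to 40.8 CPM with vehicle and 121 to 139 with AM9747 (1.97, adjusted p = 0.00491). The transcription factors SNAI1 (1.38) and SNAI2 (1.73), the membrane protease MMP14 (1.28) and the receptor kinase AXL (0.99) rose, whereas COL6A1 (-1.34) and the fibronectin receptor subunit ITGA5 (-0.69) fell, and vimentin (VIM, 0.41) did not pass. SNAI2, AXL, COL6A1 and ITGA5 lost their calls with the covariate (adjusted p = 0.109, 0.156, 0.0872 and 0.0722) and without vehicle replicate 2 or 4 or AM9747 replicate 1, 2 or 4 (adjusted p up to 0.171), and MMP14 without AM9747 replicate 2 (adjusted p = 0.055). MMP2, a gelatinase, rose by 1.79 and lost its call with the covariate (adjusted p = 0.11) and without vehicle replicate 2, vehicle replicate 4 or any 1 AM9747 library (adjusted p up to 0.108). Without vehicle replicate 2, vehicle replicate 4 or AM9747 replicate 1, 3 or 4 the number that rose was 5, and without AM9747 replicate 2 it was 4. Collagen and fibroblast markers overlap: the summed level of 10 fibroblast markers, led by COL3A1, PDGFRA and COL1A1, was 62.2 to 117 CPM with vehicle and 237 to 280 with AM9747, 1 of the 7 tested passed, and its part in the matrix result was not tested. Of 24 epithelial genes 0 rose and 2 fell (8.33%, near the share of all genes), MUC1 (-1.75) and PKP3 (-1.16); both lost their calls with the covariate (adjusted p = 0.172 and 0.156), and in every leave-one-out fit except that without vehicle replicate 1 (adjusted p up to 0.117 and 0.128).

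**Figure D4:**
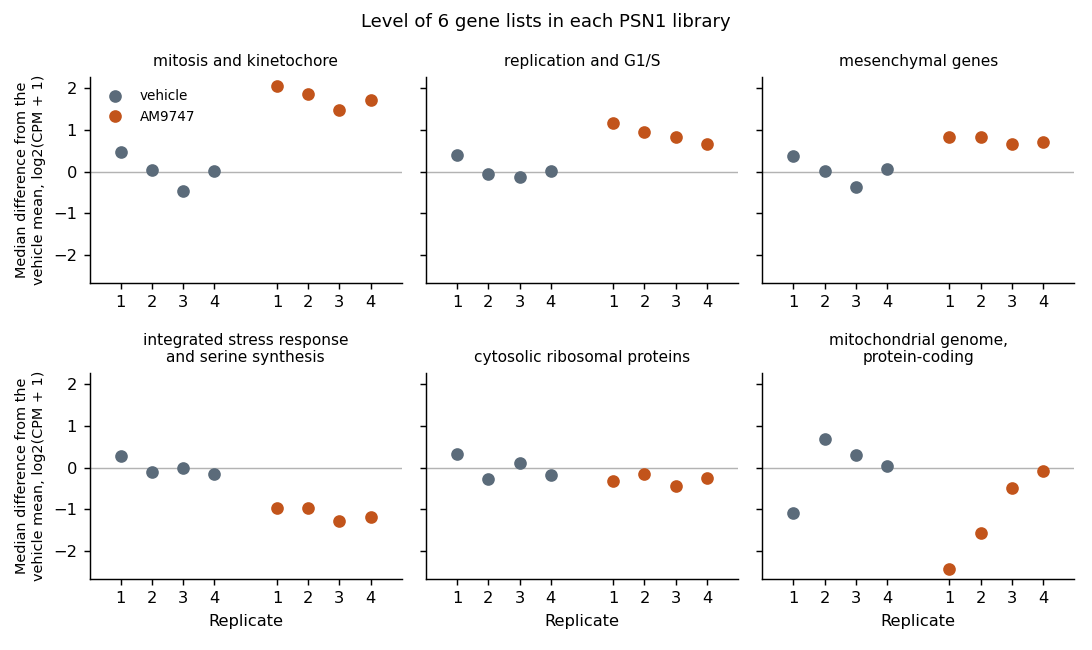
Median over the members of 6 gene lists of the difference from the vehicle mean in log2(CPM + 1), 1 point per library. Mitosis genes lie at 1.47 to 2.03 in the AM9747 libraries and the integrated stress response list at -1.29 to -0.97, while the mitochondrial genome overlaps between groups.

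Of 5 tested genes of the PRMT5 complex 1 rose (20%, against 4.2% of all genes). The level of PRMT5 was 72.3, 44.5, 67 and 65.7 CPM with vehicle and 169, 109.7, 107 and 94.4 CPM with AM9747. PRMT5 had its highest level in AM9747 replicate 1, and the groups did not overlap. The fitted log2 fold change was 0.94 ± 0.25 (SE, adjusted p = 0.0371). This call was lost with the covariate (log2 fold change 0.6, adjusted p = 0.13) and without vehicle replicate 2, vehicle replicate 4 or any 1 AM9747 library (adjusted p up to 0.103). Its cofactor WDR77 was at -0.37 and the substrate adaptors CLNS1A, RIOK1 and COPRS at 0.71, 1.12 and 0.82, and none of these 4 passed (adjusted p = 0.271, 0.367, 0.392 and 0.0643). Among 8 other arginine methyltransferases and relatives 0 rose and 1 fell (12.5%, against 6.26% of all genes), NDUFAF7, which methylates a complex I subunit (from 41.5 ± 16.3 to 14.4 ± 1.86 CPM, log2 fold change -1.53).

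The genes around methylthioadenosine held 1 call. MTAP held 27 to 97 counts in each of the 4 vehicle libraries and 35 to 81 in each AM9747 library. It was at 1.64 to 7.17 CPM with vehicle and 1.57 to 3.07 with AM9747, and its log2 fold change of -0.79 did not pass. CDKN2A, which lies next to MTAP and is often lost with it, had 0 to 18 counts per library and was not tested. Of 21 genes of the methionine, S-adenosylmethionine (SAM) and polyamine cycle 0 rose and 1 fell (4.76%, against 6.26% of all genes). MRI1, which acts after MTAP in methionine salvage, was at 41.7 to 58.2 CPM with vehicle and 20.9 to 27.3 with AM9747 (-1.04), and its call was lost without vehicle replicate 4 or AM9747 replicate 2, 3 or 4 (adjusted p up to 0.068). MAT2A was at 634, 148, 199.9 and 253 CPM in the vehicle libraries and at 369, 250.3, 135 and 101 CPM in the AM9747 libraries. MAT2A makes SAM, and vehicle replicate 1, the vehicle library with the lowest mitochondrial share, was far above the rest. The fold change was -0.53 ± 0.5 on the log2 scale (SE, n = 4 against 4, adjusted p = 0.522). With the mitochondrial share as a covariate MAT2A fell by 1.52 on the log2 scale (adjusted p = 0.000838), so its call depends on that term.

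Calls among splicing factors went in both directions. Log2 fold changes were above 0 for 21 of 28 Sm and snRNP genes and 31 of 41 SR protein and hnRNP genes. They were above 0 for 7 of 10 SMN and Gemin genes and 5 of 10 splicing kinases. The medians of these lists, in that order, were 0.64, 0.47, 0.53 and 0.003, beside 0.02 over all genes. Of 28 Sm and snRNP genes 3 rose and 1 fell (10.7% higher and 3.57% lower, against 4.2% and 6.26% of all genes). Of 41 SR protein and hnRNP genes 4 rose and 2 fell (9.76% higher and 4.88% lower), of 10 SMN and Gemin genes 2 rose (20%), and of 10 splicing kinases 0 passed in edgeR, with 2 at an unadjusted p below 0.05, 1 called by DESeq2 and 2 by limma voom with quality weights. GEMIN2, which holds Sm proteins for snRNP assembly, was at 3.84 to 6.97 CPM with vehicle and 15 to 22.5 with AM9747. The log2 fold change came to 1.83 ± 0.32 (SE, adjusted p = 0.00703). STRAP, another member of that complex, rose by 1.31. HNRNPH3 (0.98), HNRNPM (0.89), HNRNPUL1 (0.86) and HNRNPUL2 (0.74) rose, as did the Sm-like genes LSM3 (1.95), LSM4 (0.74) and LSM11 (0.95). The Sm paralog SNRPN (-0.7), the splicing regulator RBM25 (-0.84) and the SR protein gene SRSF5 (-0.74) fell, all as log2 fold changes. SNRPN is nearly identical to SNRPB, so reads may be divided between them. All but GEMIN2 lost their calls in 3 or more leave-one-out fits, including those without vehicle replicate 4, AM9747 replicate 2 or AM9747 replicate 4, with adjusted p of up to 0.161. With the covariate STRAP, HNRNPM, HNRNPUL2, RBM25, LSM4 and LSM11 no longer passed (adjusted p from 0.0532 to 0.131).

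MDM4 fell, while MDM2 and CDKN1A did not pass. Vehicle libraries held 77.8, 94.9, 97.3 and 93.5 CPM of MDM4, and AM9747 libraries held 41.2, 45.5, 43.4 and 43.6 CPM. MDM4 (MDMX) is a relative of the ubiquitin ligase MDM2, its transcript is known to lose an exon when PRMT5 is inhibited, and the groups did not overlap. That is a log2 fold change of -1.07 ± 0.18 (SE, adjusted p = 0.00708). Counts per gene do not show which exons were read. MDM4 passed with the covariate (-0.97, adjusted p = 0.0122) and with every library left out. MDM2 (-0.073) and the CDK inhibitor CDKN1A (0.21) did not pass (adjusted p = 0.88 and 0.752). SESN2, an inhibitor of mTORC1 that ATF4 also induces, fell from 47.3 ± 19.6 to 9.95 ± 1.55 CPM (-2.25), and BBC3, the pro-apoptotic PUMA, fell from 36.7 ± 4.57 to 12.4 ± 2.37 CPM (-1.57). TNFRSF10B, a death receptor, fell (log2 fold change -0.72), a call lost without vehicle replicate 2 or 4 or AM9747 replicate 2, 3 or 4 (adjusted p up to 0.12). In the BCL2 family BBC3 was the 1 of 16 that fell and 2 rose (12.5% higher and 6.25% lower, against 4.2% and 6.26% of all genes): BCL2L1 (BCL-XL), an inhibitor of apoptosis, from 38 ± 20.3 to 125 ± 33.5 CPM (1.72), and BCL2L11 (BIM), a promoter of it (1.33). BCL2L1 lost its call without vehicle replicate 2 or 4 (adjusted p up to 0.0571), and BCL2L11 without vehicle replicate 4 or any 1 AM9747 library (adjusted p up to 0.0797).

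Among 20 tested immediate early genes 6 fell and 1, ATF3, rose (30% lower and 5% higher, against 6.26% and 4.2% of all genes). For EGR1 the vehicle libraries gave 552, 741, 433 and 826 CPM and the AM9747 libraries 180.4, 139, 153 and 106 CPM. EGR1, a zinc finger factor induced by ERK signalling, had groups that did not overlap. On the log2 scale the fold change was -2.14 ± 0.27 (SE, adjusted p = 0.00189). IER2 (-1.39) passed with every library left out as well. FOS fell from 188 ± 79.6 to 67.1 ± 9.69 CPM and JUND from 364 ± 130.4 to 129 ± 45.3 CPM, both subunits of AP-1, and JUNB (-1.24) and KLF4 (-1.43) fell too, as log2 fold changes. The calls of FOS, JUND, JUNB and KLF4 were lost without vehicle replicate 4 or AM9747 replicate 2 or 4 (adjusted p up to 0.0913), those of JUND and KLF4 also without vehicle replicate 2, and that of JUND with the covariate (adjusted p = 0.0501). Without vehicle replicate 4, AM9747 replicate 2 or AM9747 replicate 4 the number of members that fell was 2. MYC (-0.18) did not pass (adjusted p = 0.686).

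Of 22 genes read as MAPK output 1 rose and 2 fell (4.55% higher and 9.09% lower, against 4.2% and 6.26% of all genes), close to those shares. The level of DUSP5 was 274, 314, 189 and 243 CPM with vehicle and 86.6, 88.1, 89.3 and 90.7 CPM with AM9747. DUSP5 is a nuclear ERK phosphatase induced by ERK itself, and the AM9747 libraries lay within a narrow range. This gave a log2 fold change of -1.52 ± 0.21 (SE, adjusted p = 0.00279). DUSP6, its cytoplasmic counterpart, was at 969 to 1733 CPM with vehicle and 657 to 808 with AM9747 (-0.995), and its call was lost without vehicle replicate 2, vehicle replicate 4 or any 1 AM9747 library (adjusted p up to 0.078). The member that rose was CCND1.

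Lipid and oxygen-response genes held large single changes, and each list had calls in both directions. Log2 fold changes were above 0 for 14 of 35 genes of cholesterol and fatty acid synthesis (median -0.08). They were above 0 for 26 of 35 genes of glycolysis and hypoxia (median 0.44), beside a median of 0.02 over all genes. In cholesterol and fatty acid synthesis 2 of 35 rose and 4 fell (5.71% higher and 11.4% lower, against 4.2% and 6.26% of all genes). SREBF1, the regulator of fatty acid synthesis, fell from 141 ± 38.2 to 35.5 ± 10.3 CPM (-1.99), SCD, a desaturase, fell (log2 fold change -1.01) and ME1, a source of NADPH, rose by 1.38. ME1 lost its call with the covariate (adjusted p = 0.147), and SCD and ME1 lost theirs without vehicle replicate 2 or 4 or AM9747 replicate 2, 3 or 4 (adjusted p up to 0.112 and 0.127). In glycolysis and hypoxia 3 of 35 rose and 3 fell (8.57% each). VEGFA, the endothelial growth factor, fell from 337 ± 107 to 102 ± 7.46 CPM (-1.73) and the neuronal enolase ENO2 from 163 ± 41.9 to 65.9 ± 10.1 CPM (-1.3), while the peptide adrenomedullin, ADM, rose from 40.4 ± 9.62 to 130.1 ± 19.3 CPM (1.69). ENO2 missed the threshold without AM9747 replicate 2 (adjusted p = 0.0519). ANGPTL4, a lipase inhibitor, rose by 1.1 and lost its call with the covariate (adjusted p = 0.139) and without vehicle replicate 2 or 4 or AM9747 replicate 1, 2 or 3 (adjusted p up to 0.0935).

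The heat shock, YAP, interferon, lysosome and germline lists held 0 to 5 calls each, where 4.2% of all genes rose and 6.26% fell. Heat shock genes and chaperones rose in 4 of 30 (13.3%) and fell in 0, with HSPA2 rising from 4.76 ± 1.44 to 22.4 ± 3.23 CPM (2.23); the others, CHORDC1 (1.22), BAG3 (1.08) and HSPA4 (0.98), lost their calls without vehicle replicate 2 or 4 or AM9747 replicate 2 or 4 (adjusted p up to 0.109), and CHORDC1 and BAG3 with the covariate (adjusted p = 0.0529 and 0.0633). Log2 fold changes were above 0 for 27 of the 30 heat shock genes and chaperones, with a median of 0.73 beside 0.02 over all genes. Their median difference from the vehicle mean, in log2(CPM + 1), overlapped between groups. It was 0.72 in vehicle replicate 1, and 0.27 and 0.56 in AM9747 replicates 3 and 4. YAP and TEAD targets rose in 4 of 23 and fell in 1 (17.4% higher and 4.35% lower). AMOTL2, a scaffold that holds YAP in the cytoplasm, was at 8.7 to 13.6 CPM with vehicle and 35.8 to 48.7 with AM9747 (1.89), and IGFBP3, a carrier of insulin-like growth factor, fell from 466 ± 41 to 216 ± 19.5 CPM (-1.11). AMOTL1 (1.25) and MYOF (1.4) passed without the covariate and not with it (adjusted p = 0.0955 and 0.119), and lost their calls without vehicle replicate 2 or 4 or AM9747 replicate 1, 2 or 4 (adjusted p up to 0.0816 and 0.0984). Interferon response genes rose in 1 of 48 and fell in 3 (2.08% higher and 6.25% lower), at or below the shares of all genes. IFI35 was at 14 to 24.1 CPM with vehicle and 2.98 to 6.56 with AM9747 (-1.96), and USP18, IFITM2 and GBP2 (1.95, -1.004 and -0.86) lost their calls without vehicle replicate 2, vehicle replicate 4 or AM9747 replicate 1, 2 or 4 (adjusted p up to 0.114), IFITM2 also with the covariate (adjusted p = 0.0685). Of 31 lysosome and autophagy genes 0 rose and 2 fell (6.45%, near the share of all genes): GAA, acid alpha-glucosidase, from 173 ± 29 to 56.7 ± 13.4 CPM (-1.61), and ULK1, the autophagy kinase, which lost its call with the covariate (adjusted p = 0.0644) and without vehicle replicate 2 or 4 or AM9747 replicate 1, 2 or 4 (adjusted p up to 0.0767). Of 32 germline genes edgeR tested 12, of which 0 passed and 0 had an unadjusted p below 0.05. DESeq2 tested 21 of the 32 and called 2 higher.

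Transcripts of the mitochondrial genome varied widely between libraries of the same group. The 13 protein-coding genes of the mitochondrial genome had a median log2 fold change of -1.09, and 0 of 13 passed in edgeR, with 6 at an unadjusted p below 0.05. DESeq2 called 4 of them lower and limma voom with quality weights 8. MT-CO1 was at 61993, 200909, 159368 and 138153 CPM in the vehicle libraries and at 20963, 38846, 84005 and 103998 CPM in the AM9747 libraries. MT-CO1, a subunit of cytochrome oxidase, overlapped between groups. Its log2 fold change was -1.18 (adjusted p = 0.172), and that of MT-ND4, a complex I subunit, was -0.76 (adjusted p = 0.373). With the mitochondrial share as a covariate the median of the 13 was -0.24. Nuclear genes of oxidative phosphorylation rose in 5 of 76 and fell in 2 (6.58% higher and 2.63% lower, against 4.2% and 6.26% of all genes), and 1 and 0 passed with the covariate. NDUFB3 (1.5), NDUFAB1 (1.33), NDUFA7 (-1.18) and ATP5F1D (-1.59), subunits of complex I and of ATP synthase with the largest changes, lost their calls without vehicle replicate 2, vehicle replicate 4 or AM9747 replicate 1, 2 or 4 (adjusted p up to 0.127), and all but NDUFB3 did so with the covariate (adjusted p from 0.0717 to 0.121).

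For mitochondrial transcription and translation 4 of 25 genes rose and 1 fell (16% higher and 4% lower, against 4.2% and 6.26% of all genes). TFB1M, a ribosomal RNA methylase of mitochondria, was at 16.6 to 35.1 CPM with vehicle and 5.4 to 8.67 with AM9747 (-1.81, adjusted p = 0.00714). POLG, the mitochondrial DNA polymerase, was at 63.8 to 129 CPM with vehicle and 159 to 322 with AM9747 (1.28), and it lost its call without vehicle replicate 4 or AM9747 replicate 2, 3 or 4 (adjusted p up to 0.0603). FASTKD5 (0.97) and PNPT1 (0.84), both active in mitochondrial RNA processing, passed without the covariate and not with it (adjusted p = 0.0596 and 0.0604), and lost their calls without vehicle replicate 2 or 4 or AM9747 replicate 1, 2 or 4 (adjusted p up to 0.0833 and 0.0917).

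Cytosolic ribosomal proteins held few calls. Of 78, 0 rose and 4 fell (5.13%, against 6.26% of all genes), with a median log2 fold change of -0.27, which was 0.05 with totals over all counts and no scaling factor. In the main fit log2 fold changes were above 0 for 11 of the 78. Without overlap between groups, 20 of the 78 were lower and 0 higher, where 10.4% and 10.9% of all genes were. RPL12 (-0.96), RPL13 (-0.998), RPL17 (-0.87) and RPL36 (-0.9) were the 4 that fell, and they lost their calls without vehicle replicate 4 or any 1 AM9747 library (adjusted p up to 0.122); all but RPL12 lost them with the covariate (adjusted p from 0.0608 to 0.121). In ribosome biogenesis 2 of 42 rose and 1 fell (4.76% higher and 2.38% lower). NOP2, a 28S ribosomal RNA methylase, was at 128 to 216 CPM with vehicle and 318 to 671 with AM9747. The fitted log2 fold change was 1.57 ± 0.28 (SE, adjusted p = 0.00761). EBNA1BP2 (1.14) and BOP1 (-0.86) lost their calls without vehicle replicate 2 or 4 or AM9747 replicate 2 or 4 (adjusted p up to 0.108), and EBNA1BP2 with the covariate (adjusted p = 0.0568). BOP1 was at -0.41 and did not pass with trends in GC content and length removed (adjusted p = 0.16 in edgeR).

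**Figure D5:**
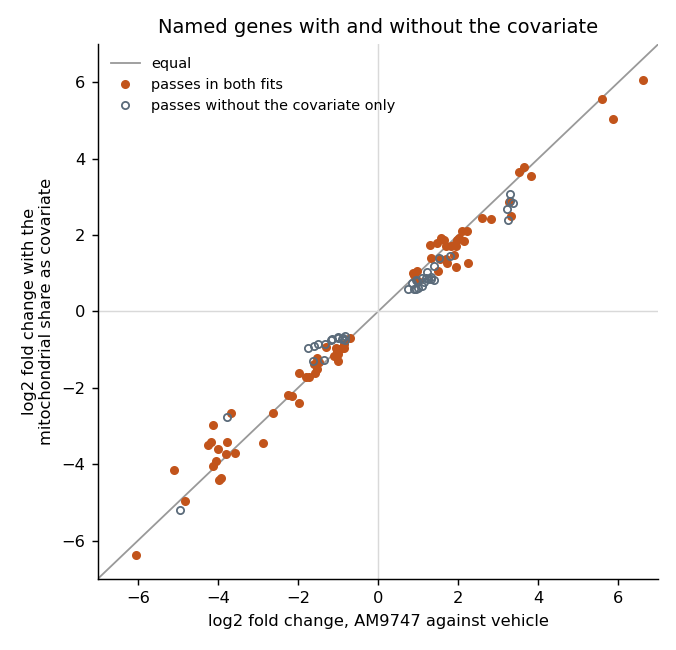
Log2 fold change of the 114 named genes that passed (x axis) against the value with the mitochondrial share as a covariate (y axis); the line marks equal values. Filled points are the 74 genes that pass in both fits and open points the 40 that pass only without the covariate, and no gene changes sign.

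Markers of the labelled cell type were present. Of 10 ductal markers 8 were tested and 1, MUC1, passed; KRT18 was at 980.0 to 1667 CPM with vehicle and 774 to 1135 with AM9747 and KRT8 was at 479.9 to 645 CPM with vehicle and 608 to 699.9 with AM9747, with log2 fold changes of -0.29 and 0.3 (adjusted p = 0.452 and 0.331), and the summed level ran from 2340.2 to 3046 CPM with vehicle and from 2039 to 2348 with AM9747. Markers of each other lineage summed to less than the ductal markers in every library. The leukocyte markers CD3E, CD3D and MS4A1 and the endocrine hormones INS, GCG, SST and PPY had 0 counts in all 8 libraries. Leukocyte markers summed to 36.9 to 80.9 CPM with vehicle and 33.6 to 109 with AM9747, led by CD14, and endocrine markers to 1.33 to 3.40 and 2.94 to 5.66. Endothelial markers summed to 62.0 to 78.1 and 77.8 to 88.5, with EMCN at 0 and PECAM1 (-0.83, adjusted p = 0.0411) as the 1 that passed, a call lost with the covariate (adjusted p = 0.126) and in every leave-one-out fit except that without vehicle replicate 1 (adjusted p up to 0.151).

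Non-coding RNAs with the largest changes all fell. Vehicle libraries held 18.3, 22.5, 17.7 and 27.7 CPM of LINC00894, and AM9747 libraries held 1.31, 1.02, 1.28 and 1.28 CPM. LINC00894, annotated as antisense at chrX:149938628-150224580 (hg38), lay within a narrow range with AM9747. The fold change was -4.13 ± 0.33 on the log2 scale (SE, n = 4 against 4, adjusted p = 0.000205). For LINC00313 the vehicle libraries gave 91.6, 187, 389.7 and 164 CPM and the AM9747 libraries 7.1, 8.52, 14.9 and 13.5 CPM. LINC00313, a long intergenic RNA of chromosome 21, had its highest level in vehicle replicate 3. The log2 fold change came to -4.24 ± 0.47 (SE, adjusted p = 0.00109). NALT1, antisense at the NOTCH1 locus of chromosome 9, was at 6.03 to 36.9 CPM with vehicle and 0.0757 to 0.853 with AM9747 (-5.1), and AC148477.3, antisense on chromosome 12, was at 3.76 to 21.4 CPM with vehicle and 0.448 to 1.18 with AM9747 (-4.12). AC106712.2 was at 12.8 to 37 CPM with vehicle and 0 to 3.03 with AM9747 (-4.95), and its call was lost with the covariate (adjusted p = 0.124) and without vehicle replicate 2, 3 or 4 or AM9747 replicate 1, 3 or 4 (adjusted p up to 0.12). The kit keeps strand, but whether the counting used it is not given in the sources used here, so antisense RNAs and their partners may not be told apart.

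The response of PSN1 differed from that of the other lines for part of these genes. The test asked for each gene whether the AM9747 response differed among PSN1, BXPC3 (100 nM) and MIAPACA2 (150 nM) by an F test over both contrasts with PSN1 in limma voom with a weight per group, on all 24 libraries, and 1890 of 22954 genes passed (8.23%). The dose differed in MIAPACA2, which cannot be told apart from the line there. INCENP had log2 fold changes of 3.66, 0.35 and -0.7 in PSN1, BXPC3 and MIAPACA2 (adjusted p = 0.000135). TGFBI had 2.64, -0.094 and -0.56 (adjusted p = 4.50e-08), and MDM4 had -1.03, 0.35 and -0.06 (adjusted p = 0.00295). ASNS had -2.61, -1.22 and 1.42 (adjusted p = 2.43e-10) and CHAC1 -3.73, -1.57 and 0.38 (adjusted p = 4.57e-07), so the lowest values of both genes were in PSN1. Over the lists, 44 of 65 mitosis genes (67.7%), 34 of 53 replication genes (64.2%) and 17 of 31 integrated stress response genes (54.8%) passed this test, against 8.23% of all genes. These lists and genes were picked with PSN1 values of the same libraries known, which can raise such shares. The median response of the mitosis genes was 1.93, 0.34 and -0.27 in PSN1, BXPC3 and MIAPACA2, and that of the integrated stress response genes -1.02, -0.47 and 0.38. PRMT5 (0.95, 0.32 and -0.085, adjusted p = 0.186) and MAT2A (-0.47, -0.93 and -1.21, adjusted p = 0.564) did not pass, which does not show that the lines respond alike.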

How the data were processed

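RNA was measured by poly(A) RNA-seq in the 24 libraries of the series, and the 8 PSN1 libraries were fitted on their own. The deposited values are counts, whole-number reads per gene that the authors had not normalized, in a table whose 24 columns were all matched to samples by title (0 unmapped columns). Per the submitters' processing notes, fastp 0.19.8, HISAT2 2.2.0, R 4.0.2, DESeq2 1.34.0 and build GRCh38 were used; for the read counter, its strand setting and the annotation these sources name none.

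Here, counts were analysed with the edgeR 4.0.16 quasi-likelihood test in R 4.3.3. The design held 1 mean per group (residual degrees of freedom 6), genes passed edgeR's filter on low counts (18309 tested), and a call was a Benjamini-Hochberg adjusted p below 0.05. Library totals and TMM factors left out MT- genes, so a library's mitochondrial share did not lower the values of its other genes. The biological coefficient of variation was 55.2%. Alternatives were the mitochondrial share as a covariate (residual degrees of freedom 5), other scalings and filters, DESeq2 1.42.0, limma 3.58.1, a replicate block, a fit of all 24 libraries, each library left out and, added after the data were seen, trends in GC content and length removed. Line differences used limma voom. Of 60366 table entries 56271 matched GENCODE 29, which gave positions on hg38. Promoters came from RefSeq (GRCh38.p14).

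The gene lists and the genes of interest were chosen with earlier results of these data known. Named genes were 12 genes of interest, the 12 protein-coding genes with the largest rise and the 12 with the largest fall that passed, did not overlap and had a mean of at least 5 CPM, 5 such non-coding RNAs, and up to 4 genes with the largest changes per list. Any gene named beyond this was picked with its values in view, and some results are not reported here. The fit was tested on simulated counts, where it missed most of the changes put in, so a gene that did not pass may still have changed. In these PSN1 libraries no 2 replicates of a group agreed within sampling noise (chi-square per gene of 39.3 or more). That value was computed over all genes, MT- genes among them, on the deposited totals. The uneven mitochondrial share is therefore part of it, and it was not computed on the scale of the fits.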

Additional observations from a re-analysis of the deposited data

Results flagged for a closer look

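The 40 named genes of the widest interest, with the mitochondrial share, genes detected and depth of the libraries, gave 86 groups of 4 libraries. In 8 groups, 1 library lay apart from the other 3 by more than Dixon's 95% critical value, where chance gives about 1 in 20 groups. All 8 were in named genes. They were INCENP in AM9747 replicate 3 (308 CPM), PRSS1 in AM9747 replicate 4 (0.426 CPM), AC106712.2 in AM9747 replicate 2 (3.03 CPM), LINC00894 in AM9747 replicate 2 (1.02 CPM), MTAP in AM9747 replicate 2 (3.07 CPM), PCK2 in vehicle replicate 1 (118 CPM), COPRS in vehicle replicate 1 (42.1 CPM) and AOX1 in vehicle replicate 3 (0 CPM). INCENP, PRSS1, LINC00894 and PCK2 kept their calls with that library left out, and the call of AC106712.2 also did, while it was lost without 6 of the others.

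The response to AM9747 differed among the 3 lines for 23 of these 40 genes (limma voom F test, adjusted over 22954 genes), where 8.23% of all genes passed. Most of the 40 were chosen for large changes in the same PSN1 libraries, which by itself favours a difference from the other lines. The 23 are therefore a description and not a test of how far PSN1 differs. Among genes that rose in PSN1, the adjusted p was 5.24e-06 for CPA4, 0.000135 for INCENP, 0.000336 for FSTL1, 0.00148 for DKK1, 0.00437 for CENPA and 0.00965 for RGS4. For coding genes that fell, it was 4.57e-07 for CHAC1, 3.35e-05 for PCK2, 0.000137 for PRSS1, 0.00037 for NOX3, 0.0011 for PRSS2, 0.00295 for MDM4, 0.00361 for ADM2, 0.00393 for ITIH4, 0.00882 for ANKHD1-EIF4EBP3, 0.0231 for PGGHG, 0.0327 for DMBT1 and 0.0497 for CAPN8. Non-coding RNAs gave 0.00724 for AC148477.3, 0.00816 for LINC00313, 0.0131 for NALT1, 0.0337 for AC106712.2 and 0.0474 for LINC00894. Some of these genes were near 0 CPM in another line, where a response could hardly be seen. In MIAPACA2, DMBT1 and AC106712.2 had a mean of 0 CPM in both groups. CPA4 was there at 0.0082 with vehicle and 0.0072 with AM9747, ADM2 at 0.089 and 0.099 and CAPN8 at 0.18 and 0.096. In BXPC3, CAPN8 was at 0.46 and 0.52 CPM, and DMBT1 at 14.7 and 4.36 CPM (log2 fold change -1.94). The edgeR fit of all libraries gave an adjusted p of 1 for NOX3, 0.0596 for ANKHD1-EIF4EBP3 and 0.0655 for AC106712.2, so these 3 genes did not pass there. The dose was 150 nM in MIAPACA2 and 100 nM in the others.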

How the results depend on the processing

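The counts of 769 genes higher and 1147 lower moved most with the tool and the libraries. DESeq2 called 1887 and 2059, limma voom with quality weights 2834 and 2640, and the fit of all 6 groups 3234 and 2522. With no scaling factor the counts were 1174 higher on totals outside the mitochondrial genome, and 1212 higher and 542 lower on totals over all counts. Leaving out 1 library gave 190 to 2448 higher and 354 to 1902 lower. The difference in genes detected, 3972 more with AM9747, ranged from 2666 to 5363 and passed with p = 0.0286 without vehicle replicate 1 (exact permutation test). Of the 114 named calls 50 were kept with each library left out, and 40 were lost with the mitochondrial share as a covariate. Removing trends in GC content and length lost 10, and no filter on low counts lost 11. No scaling factor lost 24 on totals over all counts and 9 on totals outside the mitochondrial genome. In any alternative 0 of the 114 changed sign.

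Genes and list medians whose log2 fold change turned sign did not pass in the main setting. With the covariate CDKN1A was -0.27, CLNS1A -0.018 and MT-ND4 0.19, and the medians of the BCL2 family and leukocyte markers were -0.013 and -0.32. With no scaling factor on all counts KRT18 was 0.058, MDM2 0.30 and MYC 0.20, and the medians of ribosomal proteins, germline genes and ductal markers were 0.052, 0.40 and 0.15. MDM2 was 0.014 with no scaling factor outside the mitochondrial genome, 0.042 with limma voom and -0.23 to 0.057 with 1 library left out, and MAT2A was -0.93 to 0.091 with 1 library left out. The germline median was 0.091 with mitochondrial counts inside the totals, 0.93 with DESeq2, 0.95 with no filter, 0 in the fit of all groups and -0.70 to 0.50 with 1 library left out, and the ductal median 0.12 with DESeq2 and 0.14 with no filter. The cause was not tested.

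Whether replicate numbers pair the PSN1 samples was not settled. Deviations of same-numbered libraries correlated at 0.508, -0.102, 0.146 and -0.051, and 1 of 4 libraries, replicate 1, correlated best with its own number. Replicate 1 also had the lowest mitochondrial share of both groups, 17.4% with vehicle and 7.98% with AM9747. With a replicate block 1818 genes were higher and 1606 lower, against 769 and 1147 without it, and 0 of the 114 named calls were lost. Depth outside the mitochondrial genome was lowest in vehicle replicate 3, where genes of a few counts could be read as 0. With every library thinned at random to that depth, it still had the fewest genes with at least 1 count. These were 16620, against 19319 to 23505 in the other vehicle libraries. Some genes at 0 there had many counts elsewhere: DKK1 had 492, 96, 0 and 206 counts in vehicle replicates 1 to 4, and AOX1 213, 127, 0 and 154. The cause of these zeros was not tested. With 4 libraries a group the exact permutation test cannot go below 0.0286.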

Other observations

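Further secreted and surface genes fell that are in none of the lists; they and the genes below were chosen after their values were seen, and each that fell or rose passed in edgeR with the mitochondrial share as a covariate and with every library left out. LCN2, the iron-scavenging lipocalin of inflamed epithelium, fell from 799 ± 119 to 83.9 ± 15 CPM (SD, n = 4 each), a log2 fold change of -3.25. CHI3L1, a secreted chitinase-like protein, fell from 1624 ± 43.5 to 303 ± 24.2 CPM (-2.42), and CD177, a surface protein best known from neutrophils, from 191 ± 89.9 to 19.3 ± 6.75 CPM (-3.31). The gel-forming mucin MUC6 fell from 129 ± 41.4 to 17.6 ± 7.58 CPM (-2.88), its relative MUC5B from 139 ± 19.99 to 40.8 ± 10.6 CPM (-1.77) and FCGBP, a mucus protein, from 60.04 ± 11.2 to 17.9 ± 3.46 CPM (-1.75). Complement factor B, CFB, fell from 612 ± 86.2 to 165 ± 54.6 CPM (-1.89), and PAEP, a secreted lipocalin, from 47.4 ± 31.2 to 4.03 ± 1.01 CPM (-3.55). The groups did not overlap for any of these 8 genes. The gel-forming mucins MUC5AC (-0.93, adjusted p = 0.0501) and MUC2 (-1.17, adjusted p = 0.586) did not pass, and the membrane mucin MUC13 rose (3.26). In the transsulfuration pathway, which makes cysteine from homocysteine, CBS fell from 166 ± 47.8 to 30.1 ± 9.46 CPM (-2.46) and CTH from 25.5 ± 12.4 to 5.54 ± 1.59 CPM (-2.2), and MPST, which makes hydrogen sulfide from a cysteine product, fell from 89.8 ± 30.3 to 26.2 ± 6.37 CPM (-1.78).

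OGT was at 2289, 3785, 2486 and 3653 CPM in the vehicle libraries and at 436, 516, 569 and 511 CPM in the AM9747 libraries. OGT, the enzyme that adds O-GlcNAc to nuclear and cytosolic proteins and whose transcript is known for regulated intron retention, had groups that did not overlap. The fold change was -2.59 ± 0.25 on the log2 scale (SE, n = 4 against 4, adjusted p = 0.000563). MYH9, the heavy chain of non-muscle myosin, rose from 300.4 ± 101 to 1069.7 ± 207 CPM (1.83), and the kinase JAK2 from 10.7 ± 6.1 to 60.6 ± 15 CPM (2.5). AQP3, a glycerol channel, rose from 74.5 ± 34.1 to 338 ± 61.5 CPM (2.18), the chemokine CCL2 from 40.8 ± 8.35 to 152 ± 26.2 CPM (1.9) and DDX23, a helicase of the U5 snRNP, from 104 ± 18.7 to 322 ± 45 CPM (1.63). Division genes outside the lists rose as well, among them CDCA5 (sororin, 2.38), CIT (1.96), KIF18B (1.95), STMN1 (1.89), CKS2 (1.89) and PLK4 (1.66), as log2 fold changes.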
